A study of Mus musculus with 48 samples.

Results

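The 16 libraries described here came from Bmal1-KO cells (KO) at 18, 30, 36 and 48 h, with 4 libraries at each time, out of 48 libraries in the series. They were chosen by genotype, time and library name, not by any measured value. The library names hold a letter and a number, and the 12-h differences were taken between libraries of the same number: KO 30 h minus KO 18 h inside number 18, and KO 48 h minus KO 36 h inside number 19. All cells were AML12, an immortalised line of mouse hepatocytes grown in serum with insulin, transferrin, selenium and dexamethasone, and all received a 1-h pulse of dexamethasone at about confluence to synchronise their clocks. Wild-type libraries (WT) of the same times, also 16, served as the comparison. RNA was read with Smart-seq3 on bulk samples, a protocol that copies whole transcripts from small inputs. Times in the titles were read as hours, and their starting point is not stated. Nor do the labels say whether the KO line is 1 clone or whether the 4 libraries of a group are 4 cultures. The spread that the p-values rest on is therefore the one between libraries, which may be technical.

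BMAL1 pairs with CLOCK to switch on the Per, Cry and Rev-erb genes, whose proteins then repress BMAL1-CLOCK or Bmal1 itself. This feedback loop gives a daily cycle inside each cell, and cultured cells that lack BMAL1 are known to lose it. Glucocorticoids such as dexamethasone act through the glucocorticoid receptor, induce Per1 among many other genes, and set a common phase across a dish. Points 12 h apart lie at opposite phases of a 24-h cycle, so a gene that follows such a cycle differs most between them when one point is its peak. The pair of contrasts starts at phases 18 h apart (18 and 36 h), so a wave that is invisible to one contrast is at its largest in the other.

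The count table carries no gene names or identifiers. A row is therefore named by its place after the header, and clock genes, Bmal1 and cell type markers could not be looked up. Library totals of the 16 libraries ran from 87163 to 691659 counts with a median of 295424. Libraries of the same group never agreed within counting noise over 24 pairs (chi-square per degree of freedom 1.13 to 4.06), and all were kept. The KO labels were set against 77 rows that differed at least 2-fold between KO and WT at 24 and 42 h, times outside both contrasts. On a scale where the WT libraries of those times average 0 and the KO libraries average 1, the 16 KO libraries lay between 0.64 and 1.26 and the 16 WT libraries between -0.21 and 0.31. No KO library lay among the WT libraries, which also differ from KO in library number.

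KO 48 h replicate 3 stood apart. It was the shallowest of the 16 at 87163 counts, and its 100 most abundant rows took 26.6% of its counts against 20.6 to 22.5% in the other KO 48 h libraries. Its median correlation with its own group, over 3957 rows whose average log2 CPM (counts scaled to library size) was 6 or more, was 0.82, against 0.94 to 0.95 for the other libraries of that group. It lay at 52.0 on the first principal component of the 16 libraries, which held 36.4% of the variance, while the others lay between -8.12 and 2.44. Its position between WT and KO, 0.99, was like that of the other KO 48 h libraries. The 48 h results that it moved are given with and without it.

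The libraries at 30 h held more different rows than those at 18 h. At an equal depth of 72398 counts, the 18 h libraries had an expected 9138, 9174, 9189 and 9188 rows, and the 30 h libraries 9360, 9289, 9294 and 9331. The groups did not overlap, and the difference of 146 rows had an exact two-sided permutation p of 0.0286, the smallest that 4 against 4 libraries allow (adjusted p = 0.171 over 6 measures). The 100 most abundant rows took 21.8% ± 0.69 (SD, n = 4) of the counts at 18 h and 20.7% ± 0.30 (SD, n = 4) at 30 h, a difference that did not pass (exact permutation p = 0.0571). Between 36 and 48 h the rows at equal depth differed by 15.9, within the spread (exact permutation p = 0.943): the 36 h libraries lay between 9157 and 9166, and the 48 h libraries between 8933 and 9318. Without KO 48 h replicate 3 the 48 h libraries lay between 9224 and 9318, all above 36 h as in the other contrast, and the difference was 97.1. Mean total counts were 332568 at 18 h and 385230 at 30 h, and 234398 at 36 h and 319585 at 48 h. Neither difference passed (exact permutation p = 0.657 and 0.457).

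**Figure D1:**
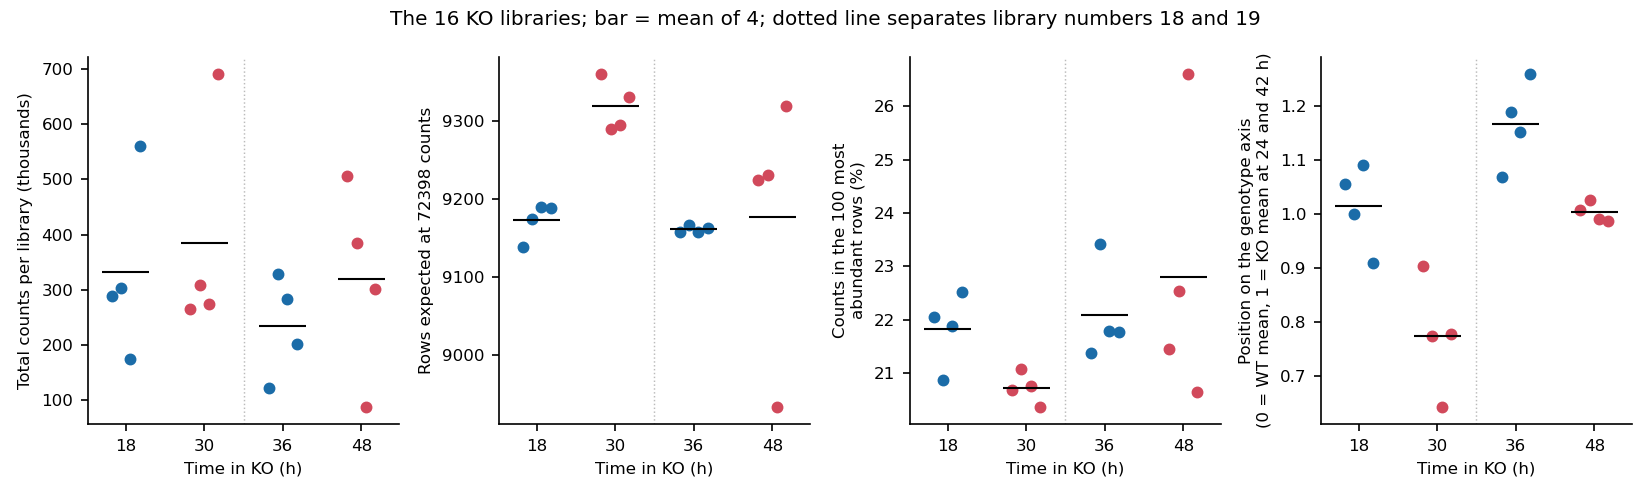
Total counts, rows expected at 72398 counts, share of the 100 most abundant rows and position between WT (0) and KO (1) for each of the 16 KO libraries, by time; bars are means of 4. The 30 h libraries (9289 to 9360 rows) lie above all 18 h libraries (9138 to 9189), and KO 48 h replicate 3 is the low point at 8933 rows and the high point at 26.6%.

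Few rows passed the test between opposite phases in KO cells. Between 18 and 30 h, 10 of 8617 tested rows were called, 0.116%, with 4 higher (0.0464%) and 6 lower (0.0696%) at 30 h. Between 36 and 48 h, 2 rows were called, 0.0232%, both higher at 48 h. A call is an adjusted p under 0.05 in edgeR's quasi-likelihood test with Benjamini-Hochberg adjustment over all tested rows. No row was called in both contrasts. At an unadjusted p under 0.05 there were 909 rows (10.5%) for the first contrast and 572 (6.64%) for the second, where 5% of the tested rows would be 431. The first contrast was a little better measured, with a median standard error of 0.28 on the log2 scale against 0.31.

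The number of calls rested on single libraries. Of the 10 calls between 18 and 30 h, 0 were left without KO 30 h replicate 4, the deepest of the 16, with 568 rows then at an unadjusted p under 0.05. At KO 18 h, omitting replicate 3 left 1 call, and omitting replicate 1 or replicate 2 left 2. At KO 30 h, omitting replicate 2 left 5 and omitting replicate 3 left 6. Fitted on its own 8 libraries the contrast gave 42 calls, and with the 24 KO libraries 24. Both calls between 36 and 48 h remained without KO 48 h replicate 3. Without KO 36 h replicate 2 there were 0, with 514 rows at an unadjusted p under 0.05, and without KO 36 h replicate 1, 3 or 4 or KO 48 h replicate 1 there was 1.

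**Figure D2:**
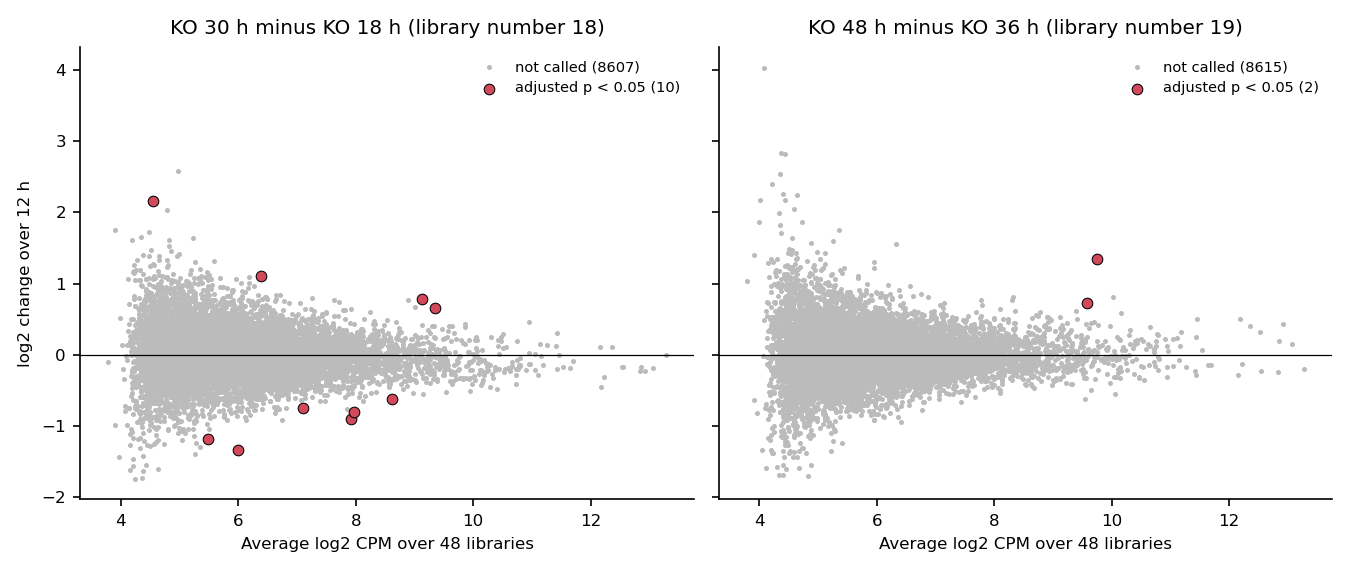
Log2 change over 12 h in KO cells against average log2 CPM, one point per tested row; red points passed an adjusted p of 0.05. The 10 red points of the 30 h minus 18 h contrast lie on both sides of 0, and the 2 of the 48 h minus 36 h contrast are higher at 48 h and abundant.

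Among the called rows, the largest increases between 18 and 30 h were in rows 19489 and 43, and some rows that did not pass changed more. Row 19489 is a rare transcript, with 0, 1, 1 and 5 counts in the 18 h libraries and 5, 6, 4 and 25 counts at 30 h. Its level was 0, 3.42, 6.02 and 9.49 CPM at 18 h and 19.3, 20.1, 14.97 and 36.9 CPM at 30 h. Every 30 h library was above every 18 h library. The fitted log2 change was 2.16 (SE 0.48, adjusted p = 0.0387, edgeR), and the ratio of summed counts per effective library size was 4.78 (95% interval 2.12 to 12.7, counting error only). At the other times the KO means of row 19489 were 15.8 CPM at 24 h, 20.4 at 36 h, 13.8 at 42 h and 19.7 at 48 h. The mean was thus lowest at 18 h, where the means at 36, 42 and 48 h belong to number 19. Single libraries at 42 h (5.08 CPM) and 48 h (6.83 CPM) lay inside the 18 h range. Its change between 36 and 48 h was -0.03 (SE 0.45). The call at 30 h was lost without KO 18 h replicate 1, 2 or 3 or KO 30 h replicate 4.

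Row 43 was at 36.8, 58.1, 54.2 and 36.1 CPM at 18 h and at 77.3, 97.2, 93.6 and 106 CPM at 30 h. The groups did not overlap, and the log2 change was 1.11 (SE 0.25, adjusted p = 0.0387, edgeR). At 24 h it was at 57.3 ± 9.87 CPM (SD, n = 4), overlapping 18 h. It stayed near the 30 h level afterwards, with means of 88.3 ± 33.7, 79.6 ± 11.4 and 92.3 ± 17.3 CPM at 36, 42 and 48 h (SD, n = 4). Between 36 and 48 h its groups overlapped, and the log2 change was 0.08 (SE 0.25). Its call was lost without any of the 4 libraries at 18 h or KO 30 h replicate 2, 3 or 4. Inside number 18, row 43 was thus low at 18 and 24 h and higher at 30 h. Its means at 36, 42 and 48 h were also higher, but they come from number 19, so time and number cannot be told apart.

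The largest decreases among the called rows were in rows 1753 and 29518. Row 1753 was at 66.3, 92.4, 84.3 and 75.9 CPM at 18 h and at 38.7, 46.9, 29.9 and 20.7 CPM at 30 h, without overlap. Its log2 change was -1.33 (SE 0.30, adjusted p = 0.0387, edgeR). The later means, all of number 19, were 62.5, 63.6 and 66.9 CPM at 36, 42 and 48 h. They lay between those of 18 and 30 h and hardly moved (54.0 CPM at 48 h without KO 48 h replicate 3). The call of row 1753 was lost without any of the 4 libraries at 18 h or KO 30 h replicate 3 or 4. Row 29518 was at 58.9, 103, 60.2 and 89.2 CPM at 18 h and at 34.8, 36.9, 41.2 and 32.5 CPM at 30 h. These groups did not overlap either, and row 29518 fell by 1.18 on the log2 scale (SE 0.27, adjusted p = 0.0387, edgeR). In number 19 it went from 46.0 ± 2.46 CPM at 36 h to 77.4 ± 14.8 at 42 h and 62.9 ± 19.6 at 48 h (SD, n = 4), where the mean without KO 48 h replicate 3 was 53.1 ± 1.32 CPM (SD, n = 3). The 42 h level was close to that of 18 h, but the libraries of these times also carry the same letters in their names, so a return after 24 h and a shared letter cannot be told apart. The call of row 29518 was lost without any 1 of the 8 libraries of the contrast.

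The called decrease with the smallest p was in row 13408. It was at 276, 322, 295 and 292 CPM at 18 h and at 170.1, 184, 149.7 and 139 CPM at 30 h. The groups lay far apart relative to their spread, and the log2 change was -0.90 (SE 0.16, adjusted p = 0.00305, edgeR). At 24 h the mean was 239 ± 37.1 CPM, between those of 18 and 30 h. In number 19 the row was highest in the middle, with 248 ± 45.2 CPM at 36 h, 323 ± 36.0 at 42 h and 230.0 ± 38.8 at 48 h (SD, n = 4). Its change between 36 and 48 h was -0.06 (SE 0.17), not past the test.

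The other 5 rows called between 18 and 30 h changed less. The 2 that rose did so by 0.66 and 0.78 on the log2 scale, and the 3 that fell changed by -0.80 to -0.62 (adjusted p = 0.0367 to 0.0387, edgeR). In all 10 called rows the 18 and 30 h libraries did not overlap in CPM, as was the case in 6.32% of all tested rows. None of the 10 came near the test between 36 and 48 h, where the largest change among them was 0.30 on the log2 scale and the smallest adjusted p 0.795. Row 29518 nevertheless had no overlap there, with 42.6 to 48.3 CPM at 36 h and 52.3 to 92.3 CPM at 48 h. That rise was opposite to its change from 18 to 30 h, and 3.96% of all tested rows had no overlap.

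Rows 12270 and 27859 were the 2 called between 36 and 48 h, and both are abundant. Row 12270 was at 119, 111, 126 and 199 CPM at 36 h and at 330.3, 304, 725 and 242 CPM at 48 h. The groups did not overlap, and the highest value was that of the library that stood apart, replicate 3. The log2 change was 1.35 (SE 0.24, adjusted p = 0.00217, edgeR) with all libraries and 1.10 (adjusted p = 0.0314) without replicate 3. Without KO 36 h replicate 2 it did not pass (adjusted p = 0.0583). Between 18 and 30 h row 12270 did not move, at 357 ± 69.8 and 342 ± 36.1 CPM (SD, n = 4), and its fitted change was -0.11 on the log2 scale (SE 0.19). The mean was 398 ± 87.6 CPM at 24 h and 317 ± 35.5 at 42 h (SD, n = 4). The 36 h libraries were thus the low ones inside number 19. They were also below those of number 18, where time and number cannot be told apart.

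Row 27859 was at 289.8, 318, 301 and 209 CPM at 36 h and at 445, 439, 475 and 516 CPM at 48 h. Every 48 h library was above every 36 h library. Its log2 change was 0.73 (SE 0.15, adjusted p = 0.0226, edgeR), and 0.72 (adjusted p = 0.0314) without KO 48 h replicate 3. The call was lost without any of the 4 libraries at 36 h (adjusted p = 0.0583 to 0.314), without KO 48 h replicate 1 (0.0596) or 4 (0.187), without a filter on low counts (0.109) and on the 8 libraries of the contrast alone (0.479). It also went up from 375 ± 55.2 CPM at 18 h to 497 ± 42.3 at 30 h (SD, n = 4), again without overlap, but this log2 change of 0.40 (SE 0.13) did not pass (adjusted p = 0.221, edgeR). Of all tested rows, 3.96% had no overlap between 36 and 48 h. Row 27859 was thus higher at the later time in both contrasts, while row 12270 was so in number 19 only. The test of a difference between the contrasts called 3 rows, 0.0348% of those tested (732 at an unadjusted p under 0.05, 8.49%). It called row 12270 (log2 difference 1.46, SE 0.31, adjusted p = 0.0402, edgeR) but not row 27859 (0.32, SE 0.20, adjusted p = 0.666). The 3 calls went to 0 when any one of 12 of the 16 libraries was omitted, among them KO 48 h replicate 3, and to 1 without KO 18 h replicate 4 or KO 36 h replicate 4.

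**Figure D3:**
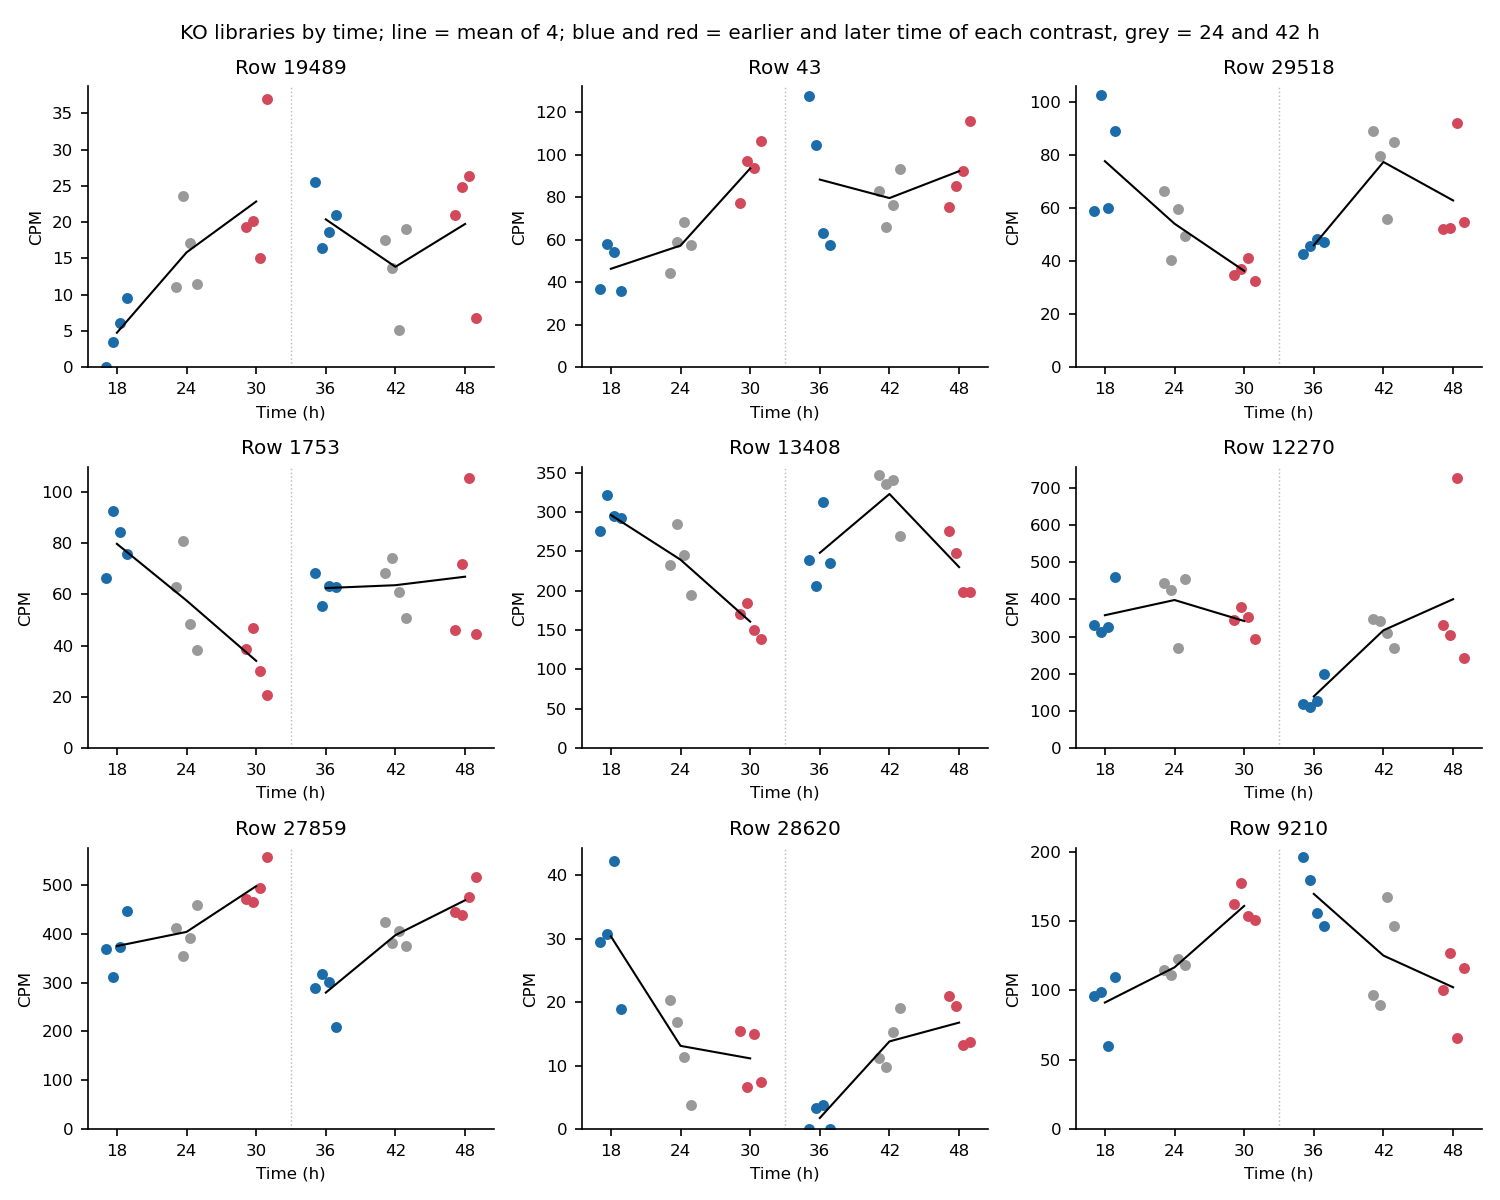
CPM in each KO library by time for the 7 rows named by the rule and for rows 28620 and 9210, whose changes differed between the contrasts; lines join means of 4 within a library number. Row 13408 falls from 18 to 30 h and is highest at 42 h, row 12270 is lowest at 36 h, and row 19489 is lowest at 18 h.

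A 24-h wave leaves a trace in both contrasts together, and a joint test of the pair used each library number only against itself. It called 4 rows, 0.0464% of those tested: 12270, 13408, 27859 and 507. Row 507 falls outside the rule for named rows and is named after its values were seen. At an unadjusted p under 0.05 there were 872 rows, 10.1%. For a 24-h wave the amplitude, in log2 units above the mean, is 0.5 times the root of the summed squares of the 2 changes. It was 0.68 for row 12270 with a peak at 23.7 h (adjusted p = 0.00585, edgeR), or 0.55 without KO 48 h replicate 3 (adjusted p = 0.0381), and 0.45 for row 13408 with a peak at 41.7 h (adjusted p = 0.00585). It was 0.42 for row 27859 (peak 25.9 h, adjusted p = 0.00585) and 0.42 for row 507 (peak 28.6 h, adjusted p = 0.0431). These peaks assume the wave and do not test it. Row 12270 was not called without KO 36 h replicate 2 or 3, nor row 13408 without KO 18 h replicate 2 or KO 30 h replicate 4. The 4 calls were 2 without KO 18 h replicate 2, KO 30 h replicate 4 or any of KO 36 h replicates 2, 3 and 4, and 17 with the 24 KO libraries alone.

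The libraries at 24 and 42 h, which neither contrast used, were set against the course of a 24-h wave. They cannot show one: the 42 h libraries carry the letters E to H, as those of 18 h do, and the 24 h libraries the letters I to L, as those of 48 h do, so the sign of the wave and that of a letter effect cannot be told apart. A 24-h wave sets the level at 42 h, relative to the mean of 36 and 48 h, at minus 0.5 times the change from 18 to 30 h. Of the 10 rows called between 18 and 30 h, 8 had the sign of the wave at 42 h, against 53.5% of all tested rows. Without KO 48 h replicate 3 it was 9, against 54.6%. Their median in the direction of the wave was 0.12 on the log2 scale, where the median size of the 12-h change was 0.85. Row 13408 had a 42 h level of 0.40 (SE 0.13) above the outer times where the wave would give 0.5 times 0.90. Row 29518 had 0.66 (SE 0.21) for a change of -1.18. The others lay within 2 standard errors of 0, among them row 1753 at 0.11 (SE 0.24) and row 43 at -0.13 (SE 0.19). Among the 286 rows (3.32%) at an unadjusted p under 0.01, 61.5% had the sign of the wave.

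The same comparison at 24 h covered the 2 rows called between 36 and 48 h. Row 12270 was 0.18 (SE 0.16) above the mean of 18 and 30 h, and row 27859 was at -0.12 (SE 0.11), where the wave would give 0.5 times 1.35 and 0.5 times 0.73. Neither value was past 2 standard errors. Among the 115 rows (1.33%) at an unadjusted p under 0.01 in that contrast, 59.1% had the sign of the wave, against 52.6% of all tested rows. Row 12270 was also 0.53 (SE 0.18) above the outer times at 42 h (0.66 without KO 48 h replicate 3), where its change between 18 and 30 h leaves almost no wave.

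**Figure D4:**
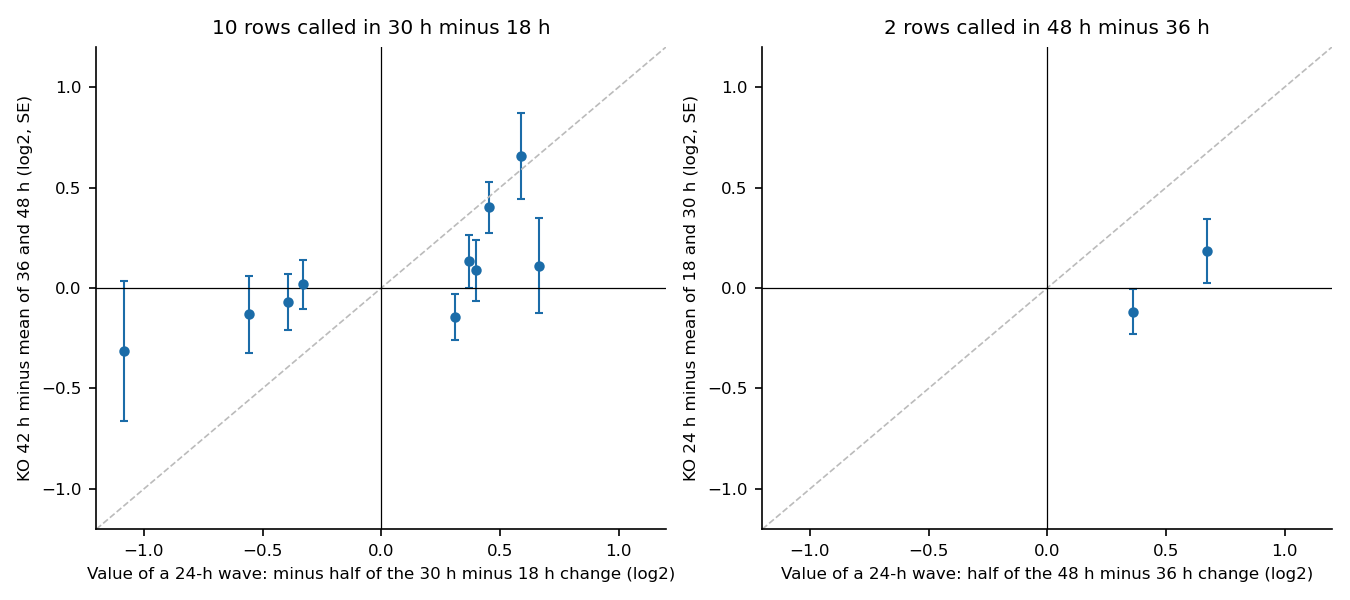
Level at 42 h (left) or 24 h (right) relative to the mean of the outer times of the same library number, against the value a 24-h wave would give, for the rows called in the KO contrast of the other number; error bars are standard errors and the dashed line marks equality. Of the 10 rows on the left, 8 have the sign of the wave, and only rows 13408 (0.40) and 29518 (0.66) lie clear of 0.

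WT cells changed in the same direction at the rows called in KO. All 10 rows called between 18 and 30 h in KO had the same sign in WT, against a same sign in 62.9% of all tested rows. Their WT changes were 0.17 to 1.08 in the KO direction, with a median of 0.66 against 0.85 in KO, where they were chosen. In 9 of the 10 the WT change was the smaller, and in 0 of the 2 rows called between 36 and 48 h. In WT, 2 of the 10 were called (13408 and 507), where 0.696% of all rows were. Both rows of the 36 to 48 h contrast were called in WT as well, where 1.25% of all rows were: row 12270 changed by 2.07 (SE 0.18) and row 27859 by 0.81 (SE 0.12). The 4 rows called in KO and WT are 12270, 13408, 27859 and 507, the rows of the joint test. Row 13408 was nearly alike in both genotypes between 18 and 30 h, at -0.90 in KO and -1.03 in WT, a difference of 0.12 (95% interval -0.33 to 0.57). Library letters were the same in KO and WT at each time (E to H at 18 h, M to P at 30 h, A to D at 36 h and I to L at 48 h), so time and letter cannot be told apart in either genotype.

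More rows passed in WT in the fit over all libraries, with 60 between 18 and 30 h and 108 between 36 and 48 h. Fitted on its own 8 libraries, the 18 to 30 h contrast gave 18 calls in WT and 42 in KO. The 36 to 48 h contrast then gave 106 in WT and 1 in KO. WT was also a little better measured, with median standard errors of 0.26 and 0.27 against 0.28 and 0.31 in KO. The KO values of the 60 and 108 rows lay mostly in the WT direction. Of the 60, 57 had the same sign in KO, against 62.9% of all tested rows. The median KO change was 0.42 in the WT direction, against 0.10 over all tested rows. The median WT change was 0.99, a size raised by the choice of rows in WT. Of the 108, 85 had the same sign in KO (84 without KO 48 h replicate 3), against 57.4% of all tested rows (56.0% without it). The median KO change was 0.23 (0.19 without it), against a WT median of 0.91 and 0.05 over all tested rows. In KO, 2 rows of each list were called, 3.33% and 1.85%. The 60 became 10 without WT 18 h replicate 1, 37 or 38 without WT 18 h replicate 3 or 2, 38, 23 or 20 without WT 30 h replicate 2, 3 or 4, and 120 without WT 30 h replicate 1. The 108 became 57, 65 or 62 without WT 36 h replicate 1, 2 or 3 and 56 or 57 without WT 48 h replicate 2 or 3. For the 52 rows (0.603%) that rose in WT between 36 and 48 h the median KO change was 0.36 (0.30 without KO 48 h replicate 3). For the 56 (0.65%) that fell in WT it was -0.15 (-0.10 without it). Between 18 and 30 h the medians were 0.42 for the 41 rows (0.476%) that rose in WT and -0.39 for the 19 (0.22%) that fell. Over the 3957 abundant rows the 12-h changes of KO and WT correlated at r = 0.47 between 18 and 30 h and at r = 0.33 between 36 and 48 h (0.27 without KO 48 h replicate 3), a relation across rows, which share libraries and letters.

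**Figure D5:**
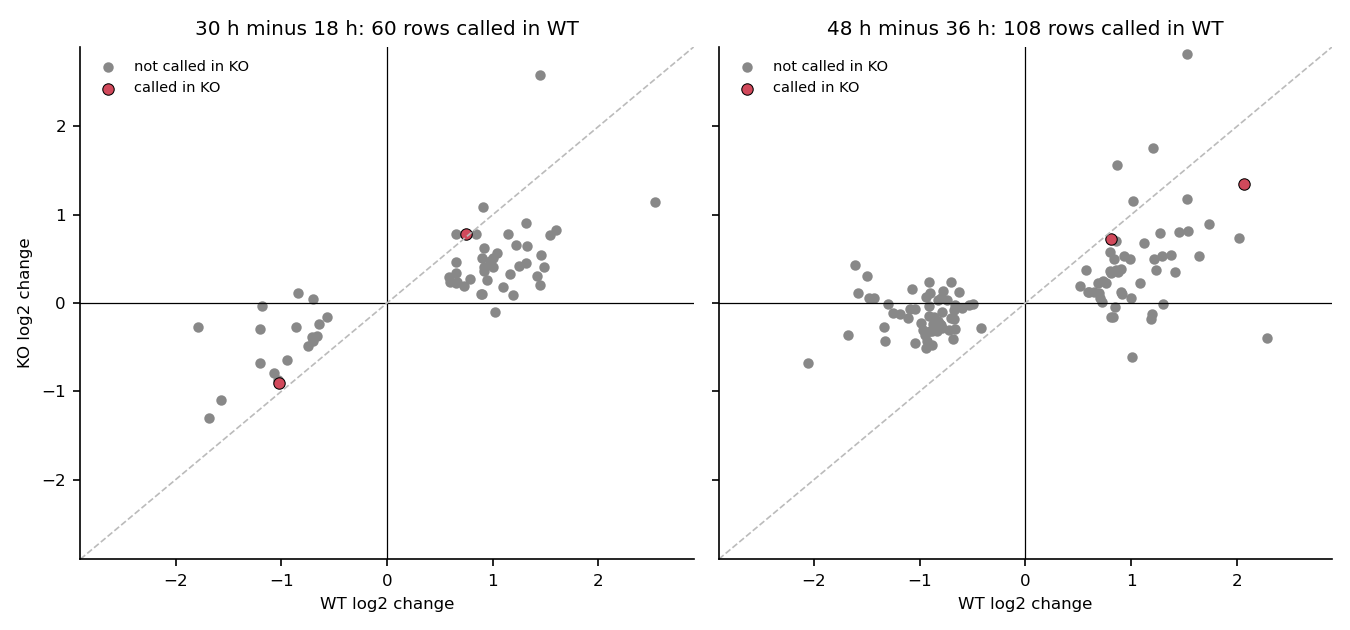
KO log2 change against WT log2 change for the rows called in WT in each contrast, with the dashed line at equality; red points were also called in KO. In the 30 h minus 18 h panel 57 of 60 rows have the same sign, against 62.9% of all tested rows. In the 48 h minus 36 h panel 85 of 108 do, against 57.4%. The points are mostly closer to 0 in KO than in WT, where the rows were chosen.

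No row passed the test of a different 12-h change between genotypes. edgeR called 0 rows between 18 and 30 h (371 at an unadjusted p under 0.05, 4.31%), 0 between 36 and 48 h (469, 5.44%) and 0 for both together (433, 5.02%). DESeq2 called 0, 0 and 1, and limma voom 0, 0 and 2. Between 36 and 48 h there were 2 without WT 48 h replicate 1 and 1 without WT 48 h replicate 3 or KO 48 h replicate 1. The joint test called 3 rows when WT 30 h replicate 3 was omitted and 2 when KO 48 h replicate 3 was. It called 1 when WT 30 h replicate 2 or 4, WT 36 h replicate 2 or KO 18 h replicate 1 was omitted. The larger number of calls in WT, seen in the fit over all libraries, thus has no row there whose genotypes were shown to differ. Of the rows called in WT, 18 of 60 (30%) and 61 of 108 (56.5%) had an unadjusted p under 0.05 for this difference. These shares are raised by the choice of the rows in WT. Over all tested rows, the smallest adjusted p was 0.0678 between 36 and 48 h and 0.0681 for both together. Between 18 and 30 h it was 0.168, that of row 12270, whose change was lower in KO (log2 difference -1.13, 95% interval -1.63 to -0.62, adjusted p = 0.168, edgeR). In WT it went from 1047 ± 217 to 2191 ± 312 CPM (SD, n = 4) between these times, and in KO from 357 to 342. Between 36 and 48 h its difference was -0.72 (95% interval -1.32 to -0.11, adjusted p = 0.814), and -0.97 without KO 48 h replicate 3 (adjusted p = 0.431). For row 19489 the KO change between 18 and 30 h exceeded that of WT by 1.85 (95% interval 0.59 to 3.11, adjusted p = 0.999). Row 19489 was picked for its KO change and row 12270 for the smallest p, so these differences between 18 and 30 h are raised by the choice. Their intervals are not adjusted for it.

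The position of KO libraries on the 77 rows that separate KO from WT at 24 and 42 h also differed between the times of each contrast. On the scale from WT (0) to KO (1), the 18 h libraries were at 1.06, 1.00, 1.09 and 0.91 and the 30 h libraries at 0.90, 0.77, 0.64 and 0.78. At 36 h they were at 1.07, 1.19, 1.15 and 1.26 and at 48 h at 1.01, 1.03, 0.99 and 0.99. In each contrast the later KO libraries lay lower on this fixed scale, without overlap. The KO means differed by -0.24 between 18 and 30 h and by -0.16 between 36 and 48 h. The WT means moved the same way and further, by -0.31 and -0.44. The distance between KO and WT at the same time was therefore larger at the later time, 0.83 at 18 h and 0.90 at 30 h, and 0.89 at 36 h and 1.17 at 48 h. This scale was chosen after the data had been seen and is given without a test. Time and library letter cannot be told apart in these shifts, in KO or in WT.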

How the data were processed

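Bulk Smart-seq3 counts of 48 AML12 libraries were used. Counts in the deposited table are whole numbers over 32377 rows; per the file headers they were made by the authors from alignments that had been sorted and freed of duplicates. STAR 2.5.4b and mm10 (GRCm38) are named in the submitters' processing notes. Which tool counted, on which annotation and strand, is not given in the sources used here. Several instruments and read lengths were used per the labels' protocols, not tied to libraries. Columns were matched by library name, and 132 other columns were not used.

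The edgeR filterByExpr filter (minimum count 10, minimum total 15) kept 8617 rows. CPM used TMM factors. One edgeR 4.0.16 quasi-likelihood fit in R 4.3.3 gave each of the 12 groups a mean, and all contrasts came from it with Benjamini-Hochberg adjustment over the 8617 rows, two-sided. Standard errors are the log2 change divided by the root of F. Library measures had exact permutation tests. The fits were tested on simulated data. For each contrast the rule named the 2 largest changes in each direction among called rows without overlap whose average log2 CPM reached 4, the 2 largest amplitudes among jointly called rows, and the called row with the smallest p for each KO minus WT difference, of which there was none. Members, lists and rules were chosen with earlier results of these data known. Libraries of the same replicate number did not deviate together between the 2 times of a KO contrast (r = -0.13 to 0.11). Replicate numbers were therefore not used as pairs. DESeq2 1.42.0 and limma 3.58.1 were alternatives.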

Additional observations from a re-analysis of the deposited data

Results flagged for a closer look

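A single distant library was found in 5 of 66 groups of 4 values (9 rows and 3 library measures), and chance at 1 in 20 gives 3.3. The total of KO 30 h replicate 4 was 691659 counts, above a range of 265267 to 309572 at that time, and without it the 18 to 30 h contrast had 0 calls. For row 12270, KO 18 h replicate 4 gave 461 CPM (the rest 311 to 332) and KO 24 h replicate 3 gave 268 CPM (the rest 426 to 454). For row 13408, KO 42 h replicate 4 gave 269 CPM, below 335 to 347 in the rest. For row 29518, KO 48 h replicate 3, the library that stood apart, gave 92.3 CPM, above 52.3 to 54.6 in the rest.

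The 12-h change differed between the contrasts for 3 rows, 0.0348% of those tested (edgeR, 732 at an unadjusted p under 0.05). The log2 difference, 48 h minus 36 h less 30 h minus 18 h, was 1.46 for row 12270, 4.26 for row 28620 and -1.35 for row 9210 (adjusted p = 0.0402 for each). Row 28620 went from 29.5, 30.8, 42.1 and 18.98 CPM at 18 h to 15.5, 6.70, 14.97 and 7.38 CPM at 30 h. It had 2 counts in all at 36 h and 22 at 48 h, a ratio of 8.03 (95% interval 1.97 to 70.4, counting error only). Row 9210 changed by 0.73 (SE 0.20) between 18 and 30 h and by -0.62 (SE 0.21) between 36 and 48 h, and neither passed over all rows (adjusted p = 0.122 and 0.691, edgeR). The libraries at 18 and 36 h, and those at 30 and 48 h, lie 18 h apart, so a 24-h wave also gives unequal changes. The 3 calls fell to 0 without any one of replicates 1, 2 or 3 at KO 18 h, KO 36 h or KO 48 h, or of replicates 1, 3 or 4 at KO 30 h. They fell to 1 without KO 18 h replicate 4 or KO 36 h replicate 4, and to 2 without KO 30 h replicate 2.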

How the results depend on the processing

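Counts of called rows are given here in the order KO 30 h minus 18 h, KO 48 h minus 36 h, KO joint, difference between the KO contrasts, WT 30 h minus 18 h, WT 48 h minus 36 h, WT joint, and KO minus WT for the first contrast, the second and both, wherever they moved by over 1.5 times. With all libraries they were 10, 2, 4, 3, 60, 108, 198, 0, 0 and 0. A robust spread gave KO joint 11, KO contrast difference 5 and KO minus WT second 1. Without a filter, KO 48 h minus 36 h had 4, KO joint 18, contrast difference 9, WT first 101, KO minus WT first 1 and joint 2. Keeping rows whose average log2 CPM reached 6 gave KO first 16, KO joint 9, contrast difference 0, KO minus WT second 1 and joint 1. A minimum change of 1.5-fold gave KO first 0, KO second 0, contrast difference 0, WT first 3 and WT second 4. An adjusted p under 0.10 gave KO first 28, KO joint 16, WT 140, 167 and joint 315, and KO minus WT second 1 and joint 2. limma voom gave KO joint 8 and KO minus WT joint 2. DESeq2 gave KO second 11, KO joint 28, WT first 37 and KO minus WT joint 1. The 24 libraries of a genotype gave KO first 24, KO joint 17, contrast difference 5, and WT 36, 63 and joint 119. The 8 libraries of a contrast gave KO first 42, KO second 1 and WT first 18. Leaving out the 3 libraries under 100000 counts gave KO first 34, KO joint 19, WT first 97, and KO minus WT 1, 2 and joint 3. Thinning to 72398 counts gave KO first 0, KO second 2 and KO joint 2, of which 0 were called with all counts, contrast difference 0, WT 5, 8 and joint 18, and KO minus WT first 1. Leaving out KO 36 h replicate 1 and KO 48 h replicate 3 together gave KO second 0, and the other such pair, chosen like it after seeing the data, gave KO first 0.

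Leaving out 1 library or 1 replicate number gave 0 to 13 for KO first, 0 to 2 for KO second, 0 to 5 for KO joint, 0 to 3 for the contrast difference, 10 to 120 for WT first, 34 to 108 for WT second and 63 to 260 for WT joint. For KO minus WT it gave 0, 0 to 2 and 0 to 3. The difference in total counts between 30 and 18 h ran from -49482 to 128804, turning at -49482 without KO 30 h replicate 4. Rows at equal depth between 48 and 36 h ran from -31.4 to 97.1, turning at -31.4 when KO 48 h replicate 4 was omitted and at -2.25 when replicate 2 was. The share of the most abundant rows between 48 and 36 h ran from -0.55 to 1.44 percentage points, turning at -0.55 without KO 48 h replicate 3. The cause was not tested for any of these moves beyond the loss of libraries, counts or tested rows that each setting makes.

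Libraries of the same replicate number were not paired by the labels, and in KO their deviations correlated at -0.13 to 0.11. A replicate block nested in library number gave 8, 2 and 4 calls for KO, 5 for the contrast difference and 93 for WT 30 h minus 18 h, and rows 19489 and 29518 no longer passed. A replicate block with 1 effect per replicate number gave 11, 2 and 3 for KO. The rows named for a single contrast kept their direction under every setting that gave them an adjusted p. That adjusted p ran from 9.69e-07 to 1 for row 12270 between 36 and 48 h. For the joint test only the amplitude was followed, which has no sign. Row 13408, named by that test alone, was thus not checked for direction, and its amplitude ran from 0.41 to 0.49. None of the rows named for the change from 18 to 30 h had a DESeq2 adjusted p, so DESeq2 could neither call them nor fail them. Of the 13 rows that DESeq2 called in that KO contrast, 6 were also called by edgeR. Rows whose average log2 CPM was under 6 had no value under that filter. At the thinned depth none of the named rows passed, rare or abundant: row 12270 between 36 and 48 h had an adjusted p of 0.0544, and row 29518 went to -0.37 and row 43 to 0.72.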
